A study of Mus musculus with 12 samples.

Results

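The genes described here encode the SR proteins, the hnRNP proteins, the SF3A and SF3B complexes and the U2AF dimer, the families that recognise and regulate splice sites in pre-mRNA. They were taken as every array probe whose platform gene symbol starts with Srsf or Sfrs, Hnrnp or Hnrp, Sf3a or Sf3b, or is U2af1 or U2af2. The rule found 93 probes of 42 genes. Of these, 76 probes of 39 genes were above background on at least 3 of the 12 arrays and were tested, among 20614 tested probes of 11472 named genes in the series. The other 17 probes were above background on at most 2 arrays, and 3 genes, Hnrnpa3, Hnrnpr and Srsf12, had no tested probe. The tested genes are 9 SR genes, 17 hnRNP genes, 3 genes of SF3A, 6 of SF3B, both U2AF genes, and 2 genes, Clasrp and Scaf11, that carried Sfrs symbols in the older nomenclature but are SR-related rather than SR proteins.

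RNA came from bone marrow cells of β-globin/GFP transgenic mice aged 3 months, hybridised to Illumina arrays, with 3 arrays in each of 4 groups. The SCF arrays held CD117+ cells exposed to 3 µg/ml stem cell factor for 48 hours, and the U arrays held CD117+ cells with no treatment in their labels. The C arrays held a further set of CD117+ cells and the A arrays held CD117- cells. CD117, encoded by Kit, is the receptor of stem cell factor and marks haematopoietic stem and progenitor cells and mast cells. Cells were enriched by magnetic separation, so each array reports a mixture of cell types. The methods name 3 mice for the CD117+ and CD117- cells, with a separate mouse for each replicate. Whether fractions numbered alike shared a mouse is not stated, nor whether the 3 mice cover the U and SCF arrays. The letter U is not spelled out in the labels, and whether the U and C cells were both kept in culture is not stated either.

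Pre-mRNA splicing removes introns through the spliceosome. The U2AF dimer marks the end of the intron, its large subunit on the polypyrimidine tract and its small subunit on the terminal AG, and the U2 snRNP then pairs with the branch point, held there by the SF3A and SF3B complexes. SR proteins bind exonic enhancers through RNA recognition motifs and recruit spliceosome components through arginine and serine rich tails, and many hnRNP proteins bind silencers and oppose them. SR and hnRNP genes commonly control their own transcripts through alternative exons and alternative 3′ ends, so that probes of 1 gene can report different transcripts. In human myeloid neoplasms SF3B1, SRSF2 and U2AF1 are recurrently mutated.

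The sequences before the start sites are given for 3 genes that were called higher both with SCF and in C against A. Hnrnpa1 and Hnrnpab have several CCAAT boxes, and Sf3a3 has an ETS-type motif and no CCAAT box. Not all genes called in both comparisons carry such motifs. The windows of Srsf1 and Srsf6 held none of the motifs counted below, and that of Srsf2 held a CCAAT box. Whether the motifs have a part in the changes was not tested. The windows are the 250 bases upstream of the start in RefSeq, build GRCm38.p6, written 5′ to 3′ on the strand of the gene. Capitals mark the CCAAT box (CCAAT or its complement ATTGG) in Hnrnpa1 and Hnrnpab, and the ETS-type motif (CCGGAAGT or its complement ACTTCCGG) in Sf3a3.
Hnrnpa1, chr15:103240147-103240396, plus strand: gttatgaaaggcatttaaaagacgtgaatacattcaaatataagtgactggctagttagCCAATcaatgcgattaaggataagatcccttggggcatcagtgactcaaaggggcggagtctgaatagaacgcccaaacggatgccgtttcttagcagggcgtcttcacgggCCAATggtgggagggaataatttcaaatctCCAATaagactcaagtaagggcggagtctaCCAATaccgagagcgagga
Hnrnpab, chr11:51606882-51607131, minus strand: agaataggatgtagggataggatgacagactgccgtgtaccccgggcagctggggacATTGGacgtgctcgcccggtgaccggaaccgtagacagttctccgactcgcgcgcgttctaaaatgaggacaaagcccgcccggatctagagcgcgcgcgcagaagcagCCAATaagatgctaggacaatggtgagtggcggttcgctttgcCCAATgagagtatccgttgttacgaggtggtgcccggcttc
Sf3a3, chr4:124714611-124714860, plus strand: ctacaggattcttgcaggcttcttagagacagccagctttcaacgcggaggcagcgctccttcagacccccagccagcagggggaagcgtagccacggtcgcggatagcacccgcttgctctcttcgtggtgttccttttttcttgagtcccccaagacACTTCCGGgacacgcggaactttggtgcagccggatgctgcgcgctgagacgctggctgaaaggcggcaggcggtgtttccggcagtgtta
Of the 42 genes, 38 matched the promoter table, which has no entry for Sf3b4, Sf3b5, U2af2 and Hnrnpll. On either strand of these windows CCAAT occurred in 19 of the 38 genes (50%) and in 37.5% of all 27025 genes, and CCGGAAGT in 7 of 38 (18.4%) and in 3.23% of all genes. The E-box CACGTG occurred in 3 genes (7.89%, against 6.86% of all) and the palindromic NRF1 motif in 1 (2.63%, against 0.877%). A match describes the letters of the window and was not tested as a binding site.

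All values below are log2 intensities after background correction and quantile normalisation of the 12 arrays, and differences are on the same log2 scale. Of 45281 probes per array, 17866 to 18027 were above background on the SCF arrays, 17786 to 18081 on the U arrays, 17719 to 18248 on the C arrays and 16210 to 17394 on the A arrays, with the dimmest of them at 4.63 to 4.82. Kit read 10.61 to 10.74 on the SCF arrays, 10.06 to 10.39 on the U arrays, 11.39 to 11.57 on the C arrays and 8.94 to 9.58 on the A arrays, so the CD117- fraction still carried its transcript. Precision is set by the 3 arrays of each group. A change of level in bulk RNA cannot be told apart from a change in the share of cells that express the gene. For each gene the probe with the highest mean stands for it unless another is named. By these probes the splicing factor genes were brighter than the series, with array medians of 8.66 to 10.37, against 6.4 for all tested probes. Shares of members and of all tested probes are set side by side below without matching for level.

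With SCF, genes of the SR, hnRNP, SF3A, SF3B and U2AF families were higher than in U cells, and no probe was called lower. Of the 76 tested probes 29 rose, belonging to 19 genes, and none fell (limma, adjusted p under 0.05). This is 38.2% of the probes, where 12.5% of all tested probes were higher, 11.6% lower and 24% different in either direction. The median difference of the 76 probes was 0.46, against 0.03 for all tested probes, and 72 of the 76 differences were positive (10995 of all 20614). For 27 of the 29 the arrays of the groups did not overlap. These probes were called on the same values, so this is no separate result, and it was not counted over all tested probes. By the probe that stands for each gene, 3 of 9 SR genes, 7 of 17 hnRNP genes, 2 of 3 SF3A genes, 2 of 6 SF3B genes and both U2AF genes rose, and none fell under any other scaling of the arrays. Over all genes, with 1 probe per gene, 14.1% were higher. The median differences were 0.47 for SR, 0.51 for hnRNP, 0.33 for SF3A and SF3B together and 0.85 for U2AF. In a fit limited to probes above background on all 6 of these arrays, 33 of 70 member probes rose (47.1%, against 16.6% of all tested probes) and none fell. The calls depended on the control. With the C arrays in place of the U arrays, 14 probes (18.4%) were higher and 22 (28.9%) lower, 47.4% in either direction. Of all tested probes 22.9% were higher and 22.4% lower, 45.3% in either direction. The authors normalised U with SCF and C with A as separate sets, so set and treatment cannot be told apart in SCF against C. With U and C arrays together 7 (9.21%) were higher and none lower (2.46% of all tested probes higher and 1.87% lower). That fit pools 2 groups that differed for 54.8% of all tested probes, which adds to its residual spread.

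**Figure D1:**
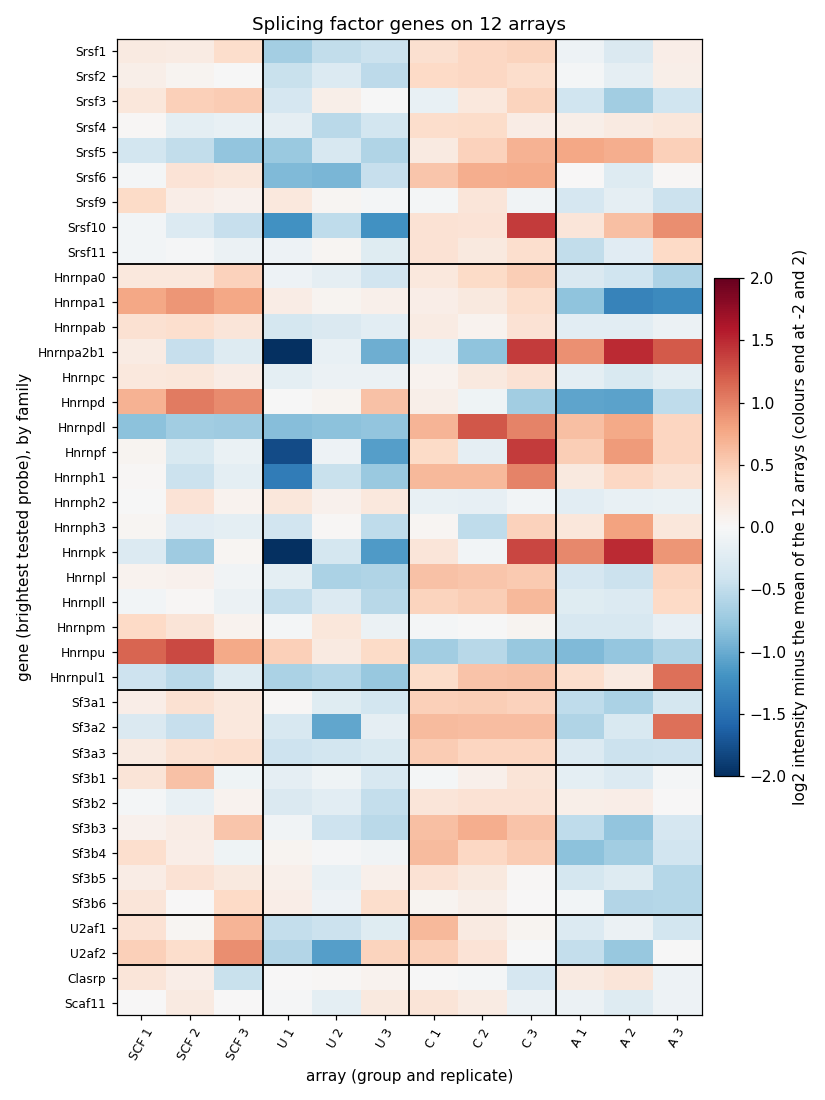
Log2 intensity of 39 splicing factor genes (rows, brightest tested probe, grouped by family) on each of the 12 arrays (columns), less the mean of that gene over the 12 arrays, in colours that end at -2 and 2. The U arrays are mostly blue, U holding the lowest group mean for 21 of the 39 genes and A for 17, while C holds the highest for 18 and SCF for 13.

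Cell type and proliferation markers moved in the same comparison. Of 10 tested mitosis genes 9 rose with SCF, with a summed intensity of 7632 to 8938 on the SCF arrays and 4181 to 4970 on the U arrays. In the megakaryocyte and platelet list 9 of 10 genes fell (24388 to 26432 on the SCF arrays, 64082 to 66545 on the U arrays), as did 7 of 8 erythroid genes (10651 to 13718, against 27883 to 29414) and all 4 tested eosinophil genes, and 4 of 5 granulocyte precursor genes rose. Their part in the splicing factor result was not tested.

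CD117+ cells of the C set carried more splicing factor transcript than CD117- cells for 28 of the 76 probes, of 22 genes, and less for none. The share was 36.8%, where 26.6% of all tested probes were higher, 19.7% lower and 46.3% different in either direction. The median difference was 0.34, against 0.06 for all tested probes, with 64 of 76 positive (11404 of all 20614). For 26 of the 28 called on these values the groups did not overlap, which was not counted over all tested probes. By the probe that stands for each gene, 5 of 9 SR genes, 8 of 17 hnRNP genes, 2 of 3 SF3A genes, 3 of 6 SF3B genes and 1 of 2 U2AF genes were higher in C. Over all genes, with 1 probe per gene, 29.6% were higher. This comparison moved with the scaling. Scaled to the median of the probes above background on all arrays, the median of all tested probes moved to -0.38 and 19 member probes (25%) were higher and 12 (15.8%) lower, where 17.8% of all tested probes were higher and 47.5% lower. All 12 lower probes were hnRNP probes, so that for hnRNP genes the count was 4 higher and 4 lower in place of 8 and 0. The lower probes included ones above background on no C or A array, those of Hnrnpu and Hnrnph2 among them. For such probes the difference is one of background signal and not of measured transcript. Scaled to the median of all probes, the median of all tested probes moved to 0.38. There 56 member probes (73.7%) were higher and none lower, where 46.7% of all tested probes were higher and 7.96% lower. Less that shift, the median of the members was 0.53 under both scalings and 0.29 under quantile normalisation. Both scalings move every probe of an array alike, so they had to give the same value. With cyclic loess 15 (19.7%) were higher and 2 lower, a share of higher probes close to the 20.6% of all tested probes. Over all tested probes the share of higher among the calls was 57.5%, against 27.2%, 85.4% and 49.7% under these 3 scalings.

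The fractions also differed in cell type. Mature neutrophil genes were lower in C for 12 of 13 tested genes, with a summed intensity of 1829 to 3290 on the C arrays and 115923 to 127416 on the A arrays. All 6 tested B cell genes (679 to 852, against 7959 to 11163) and 5 of 8 erythroid genes (34070 to 41931, against 80582 to 82236) were lower as well, and 5 of 9 stem and progenitor genes were higher. Of the mitosis genes 4 of 10 were lower in C (10536 to 11046, against 14196 to 15581) and none higher, the others not being called. The median of that list was -0.33, and the list was not fitted under the other scalings. What share of the splicing factor difference goes with these markers was not tested.

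Between the CD117+ sets without SCF, the U arrays were lower than the C arrays for 42 of the 76 probes, of 26 genes, and higher for 10 probes, of 7 genes. These are 55.3% and 13.2% of the members, where 28.8% of all tested probes were lower, 26% higher and 54.8% different in either direction. The median difference was -0.59, against -0.05 for all tested probes. Of the probes called on these values, 39 of the 42 and 9 of the 10 had groups that did not overlap, which was not counted over all tested probes. By the probe that stands for each gene, 6 of 9 SR genes, 11 of 17 hnRNP genes, all 3 SF3A genes, 3 of 6 SF3B genes and 1 of 2 U2AF genes were lower in U. Hnrnpu and Hnrnph2 were higher. Over all genes, with 1 probe per gene, 28.5% were lower and 28.5% higher. These calls require the 4 groups to be put on 1 scale. In the values the authors processed, C with A and U with SCF had been normalised as separate sets, and there the count became 14 lower (18.4%) and 27 higher (35.5%), where 8.65% of all tested probes were lower and 62.7% higher. By gene this was 5 SR genes lower and 2 higher, 4 hnRNP genes lower and 5 higher, 2 SF3B genes higher and no SF3A or U2AF gene in either direction, with the median of all tested probes at 0.24. Set of arrays and group cannot be told apart in this comparison. Of the markers, 9 of 10 mitosis genes were lower in U (4181 to 4970, against 10536 to 11046 on the C arrays). Of the mature neutrophil genes 11 of 13 were higher (34660 to 37505, against 1829 to 3290, with Mmp8, Stfa1 and Stfa2 not above background on the C arrays). In addition 9 of 10 megakaryocyte and platelet genes were higher (64082 to 66545, against 10769 to 15688), as were 8 of 9 monocyte and macrophage genes (4825 to 5997, against 836 to 1000). Of the granulocyte precursor genes 4 of 5 were lower (28250 to 30522, against 43523 to 49206). Their part in the result was not tested.

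**Figure D2:**
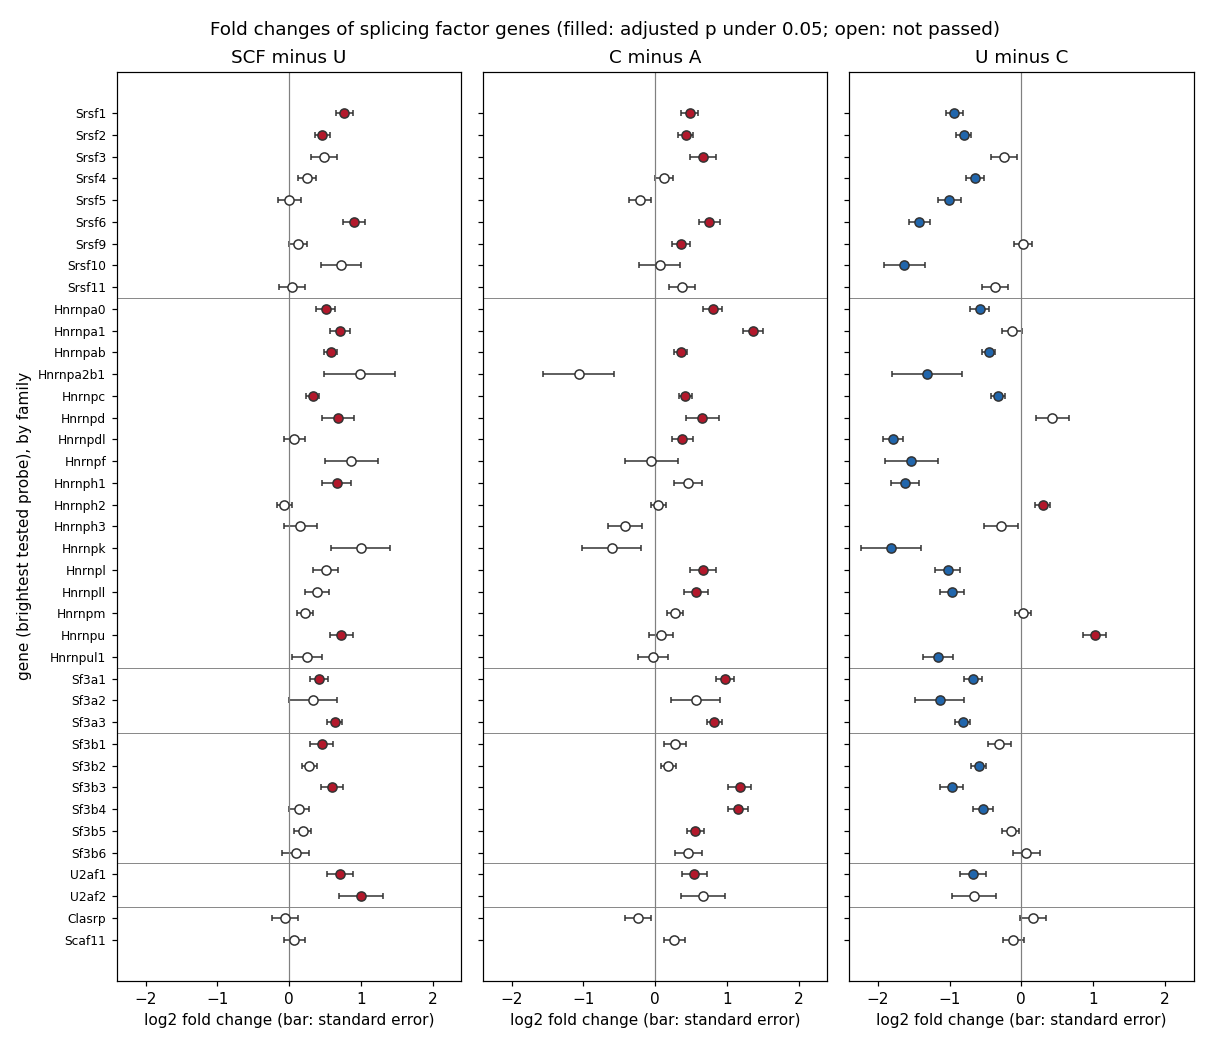
Log2 fold changes of 39 splicing factor genes (brightest tested probe, rows by family) for SCF minus U, C minus A and U minus C, with standard errors as bars and filled points where the adjusted p was under 0.05. Filled points lie right of 0 for all 16 genes called with SCF and all 19 called in C against A, and left of 0 for 24 of the 26 called in U against C.

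The comparisons of SCF with U and of C with A share no array. They are still not fully independent, because all 12 arrays were normalised together and the groups were fitted with a shared variance. By the probe that stands for each gene, 12 genes were higher in both, Srsf1, Srsf2, Srsf6, Hnrnpa0, Hnrnpa1, Hnrnpab, Hnrnpc, Hnrnpd, Sf3a1, Sf3a3, Sf3b3 and U2af1, which are 12 of the 16 called with SCF and 12 of the 19 called in C against A. How many of all tested genes were higher in both comparisons was not counted, so this overlap cannot be set against that of the series. The U against C comparison shares its arrays with both comparisons. Its values are therefore given beside theirs for each gene, and no overlap with it is drawn. No comparison passed for 6 genes, Hnrnph3, Hnrnpm, Sf3b6, Srsf11, Clasrp and Scaf11, although other probes of Hnrnpm and Srsf11 did pass.

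Among the SR genes, Srsf1, Srsf2 and Srsf6 were higher both with SCF and in C against A, and their values in U against C are given beside these. Srsf1, the founding SR protein, read 12.24, 12.23 and 12.41 on the SCF arrays, against 11.38, 11.56 and 11.63 on the U arrays. Readings on the C arrays were 12.39, 12.48 and 12.50, against 11.96, 11.77 and 12.20 on the A arrays. The groups of each comparison did not overlap. It rose with SCF by 0.77 ± 0.12 (SE, 1.71-fold higher, adjusted p = 0.00024). The gene was higher in C than in A by 0.48 ± 0.12 (SE, 1.40-fold higher, adjusted p = 0.00331), and was lower in U than in C by 0.93 ± 0.12 (SE, 1.91-fold lower, adjusted p = 6.69e-06). Srsf2, an SR protein of nuclear speckles, read 12.71, 12.64 and 12.59 on the SCF arrays, against 12.15, 12.32 and 12.07 on the U arrays. C replicates read 12.99, 13.01 and 12.94, against 12.56, 12.41 and 12.70 for the A replicates. Its groups did not overlap in any of the comparisons, and A replicate 3 lay nearest the C arrays. Srsf2 rose with SCF by 0.47 ± 0.10 (SE, 1.38-fold higher, adjusted p = 0.00403). Further differences were 0.42 ± 0.10 (SE, 1.34-fold higher, adjusted p = 0.00324) for C against A, and a decrease of 0.80 ± 0.10 (SE, 1.74-fold lower, adjusted p = 8.43e-06) for U against C. Srsf6 had the largest SR increase with SCF and read 9.59, 9.89 and 9.85 on the SCF arrays, against 8.74, 8.71 and 9.16 on the U arrays. Its C arrays gave 10.18, 10.34 and 10.37, against 9.63, 9.36 and 9.64 on the A arrays. All 3 U arrays lay below all other arrays. The change with SCF was 0.91 ± 0.15 (SE, 1.87-fold higher, adjusted p = 0.000375). Further differences were 0.75 ± 0.15 (SE, 1.68-fold higher, adjusted p = 0.00054) in C against A, and a decrease of 1.42 ± 0.15 (SE, 2.68-fold lower, adjusted p = 7.15e-07) in U against C.

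Srsf3, the smallest SR protein and an adaptor for mRNA export, read 7.84, 8.09 and 8.12 on the SCF arrays, against 7.28, 7.73 and 7.60 on the U arrays. C arrays gave 7.46, 7.83 and 8.06, against 7.21, 6.91 and 7.21 on the A arrays, and it was higher in C than in A by 0.67 ± 0.18 (SE, 1.59-fold higher, adjusted p = 0.00622). Its differences with SCF and between U and C were 0.48 ± 0.18 (SE, adjusted p = 0.0653) and -0.25 ± 0.18 (SE, adjusted p = 0.27), and a second probe of the gene gave the same calls. Srsf9 was higher in C than in A by 0.37 ± 0.13 (SE, 1.29-fold higher, adjusted p = 0.0264) and lost that call without C replicate 2 (adjusted p = 0.146), A replicate 1 (0.0641) or A replicate 3 (0.0712). Srsf10, which turns into a general splicing repressor when dephosphorylated, read 7.18, 6.96 and 6.77 on the SCF arrays, against 6.01, 6.71 and 6.01 on the U arrays. Values were 7.51, 7.50 and 8.62 on the C arrays, against 7.47, 7.82 and 8.15 on the A arrays. Every U array lay below every C array, and C replicate 3 lay above the other C arrays. It fell by 1.63 ± 0.28 (SE, 3.10-fold lower, adjusted p = 0.000139) in U against C, the largest SR difference, while its difference with SCF was 0.72 ± 0.28 (SE, adjusted p = 0.0755), or 0.96 without U replicate 2 (adjusted p = 0.0347). Srsf5 read 9.86, 9.73 and 9.43 on the SCF arrays, against 9.49, 9.90 and 9.62 on the U arrays. The level was 10.42, 10.69 and 10.93 on the C arrays, against 11.00, 10.96 and 10.71 on the A arrays, with the SCF and U arrays together below the C and A arrays. It fell by 1.01 ± 0.16 (SE, 2.01-fold lower, adjusted p = 5.87e-05) in U against C, while SCF and U differed by 0.00 ± 0.16 (SE, adjusted p = 0.993) and overlapped. Srsf4 was lower in U than in C by 0.65 ± 0.12 (SE, 1.57-fold lower, adjusted p = 0.000318), with differences of 0.25 ± 0.12 (SE, adjusted p = 0.161) for SCF against U and 0.12 ± 0.12 (SE, adjusted p = 0.473) for C against A. The SR-related Clasrp and Scaf11 ranged from 7.36 to 8.05 and from 8.17 to 8.69 over the 12 arrays, with group ranges that overlapped in each comparison except for Clasrp in U against C, where no call was made either. Srsf11 was not called, though without A replicate 3 it was higher in C than in A by 0.62 (adjusted p = 0.00167).

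**Figure D3:**
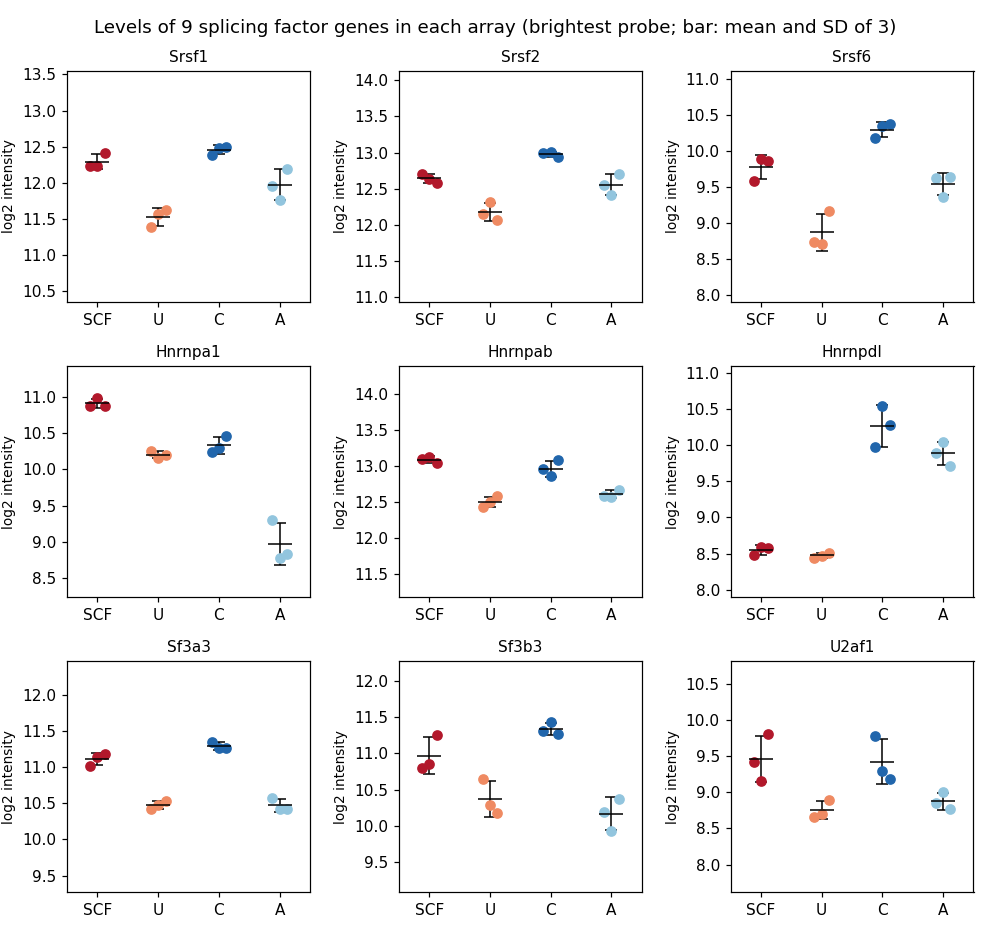
Log2 intensity of 9 splicing factor genes (brightest probe) on each array (points) in the SCF, U, C and A groups, with the mean and SD of 3 arrays, axes not starting at 0. For 8 of the 9 the SCF points lie above the U points, by a mean of 0.91 for Srsf6 and 0.47 for Srsf2, while for Hnrnpdl the SCF and U arrays lie between 8.44 and 8.59 and the C and A arrays between 9.72 and 10.54.

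Of the hnRNP genes, Hnrnpa1, a splicing silencer that also shuttles mRNA to the cytoplasm, differed most between C and A. It read 10.88, 10.99 and 10.88 on the SCF arrays, against 10.25, 10.15 and 10.20 on the U arrays. In the C group it read 10.23, 10.30 and 10.46, against 9.30, 8.77 and 8.82 in the A group. The SCF arrays were highest and the A arrays lowest, with no overlap in either comparison. The gene rose with SCF by 0.71 ± 0.14 (SE, 1.64-fold higher, adjusted p = 0.00144) and was higher in C than in A by 1.36 ± 0.14 (SE, 2.57-fold higher, adjusted p = 7.45e-07), while U and C differed by -0.13 ± 0.14 (SE, adjusted p = 0.458). Hnrnpa0, which binds AU-rich elements, read 10.25, 10.26 and 10.50 on the SCF arrays, against 9.95, 9.87 and 9.67 on the U arrays. Readings on the C arrays were 10.25, 10.43 and 10.54, against 9.75, 9.65 and 9.43 on the A arrays. It was higher with SCF by 0.51 ± 0.13 (SE, 1.42-fold higher, adjusted p = 0.011), a call lost without SCF replicate 3 (adjusted p = 0.0512). C exceeded A by 0.80 ± 0.13 (SE, 1.74-fold higher, adjusted p = 0.000131), and the gene was lower in U than in C by 0.58 ± 0.13 (SE, 1.50-fold lower, adjusted p = 0.00155). Hnrnpab read 13.10, 13.12 and 13.03 on the SCF arrays, against 12.44, 12.50 and 12.58 on the U arrays. C replicates read 12.95, 12.86 and 13.08, against 12.58, 12.57 and 12.67 for the A replicates. Its groups did not overlap in any of the comparisons, and it rose with SCF by 0.58 ± 0.09 (SE, 1.49-fold higher, adjusted p = 0.000376). Further differences were 0.35 ± 0.09 (SE, 1.28-fold higher, adjusted p = 0.0056) in C against A, and a decrease of 0.46 ± 0.09 (SE, 1.37-fold lower, adjusted p = 0.000678) in U against C. Hnrnpc, which binds uridine tracts and packages nascent RNA, read 12.98, 12.99 and 12.92 on the SCF arrays, against 12.58, 12.65 and 12.66 on the U arrays. Its C arrays gave 12.84, 12.96 and 13.06, against 12.57, 12.46 and 12.57 on the A arrays. The increase with SCF was 0.33 ± 0.09 (SE, 1.26-fold higher, adjusted p = 0.0173) and was not called without SCF replicate 2 (adjusted p = 0.0562) or U replicate 1 (0.0685). Hnrnpc was higher in C than in A by 0.42 ± 0.09 (SE, 1.34-fold higher, adjusted p = 0.00147) and lower in U than in C by 0.32 ± 0.09 (SE, 1.25-fold lower, adjusted p = 0.00798).

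Hnrnpd and Hnrnpu were dim, within about 2 log2 units of the dimmest signal above background. Hnrnpd, also known as AUF1, a factor of AU-rich mRNA decay, read 6.24, 6.59 and 6.48 on the SCF arrays, against 5.54, 5.60 and 6.12 on the U arrays. C arrays gave 5.66, 5.46 and 4.86, against 4.48, 4.47 and 5.04 on the A arrays, and it was above background on all SCF, U and C arrays and on 1 of the A arrays. It was higher with SCF by 0.68 ± 0.23 (SE, 1.61-fold higher, adjusted p = 0.0395). In C against A it was called higher (adjusted p = 0.0264), with no fold given because it was measured on 1 A array, and the difference turned to -0.08 when the arrays were scaled to the median of the probes above background on all of them. The SCF call was lost without SCF replicate 2 or 3 or U replicate 1 or 2 (adjusted p = 0.102 to 0.146), and the C against A call without C replicate 1 or 2 or A replicate 1 or 2 (0.0862 to 0.132). A second probe, above background on all SCF and U arrays, 1 C and no A array, rose with SCF by 0.68 ± 0.17 (SE, 1.60-fold higher, adjusted p = 0.00911) and was higher in U than in C by 0.81 ± 0.17 (SE, adjusted p = 0.000861). Hnrnpu, a nuclear scaffold protein that binds RNA and chromatin, read 6.34, 6.49 and 5.93 on the SCF arrays, against 5.66, 5.36 and 5.56 on the U arrays. Values were 4.47, 4.62 and 4.41 on the C arrays, against 4.29, 4.39 and 4.58 on the A arrays. It was above background on every SCF and U array and on no C or A array. It rose with SCF by 0.73 ± 0.16 (SE, 1.66-fold higher, adjusted p = 0.00369) and was at least 1.83-fold higher in U than in C (adjusted p = 5.61e-05), where the bound takes the dimmest signal above background for the undetected group. The other gene called higher in U than in C, Hnrnph2, was above background on 1 SCF, 2 U and no C or A array, so no fold is given. It read 4.44, 4.73 and 4.52 on the SCF arrays, against 4.67, 4.55 and 4.67 on the U arrays, and its call (adjusted p = 0.0244) was lost without U replicate 1 or 3 or C replicate 1 or 2 (adjusted p = 0.0626 to 0.0734).

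Hnrnpl and Hnrnpll, which bind CA-rich RNA, were both higher in C than in A and lower in U than in C, comparisons that share the C arrays. Hnrnpl read 11.89, 11.90 and 11.75 on the SCF arrays, against 11.61, 11.18 and 11.21 on the U arrays. The level was 12.40, 12.36 and 12.33 on the C arrays, against 11.48, 11.38 and 12.25 on the A arrays. A replicate 3 lay close to the C arrays and apart from the other A arrays. It was higher in C than in A by 0.66 ± 0.18 (SE, 1.58-fold higher, adjusted p = 0.00649) and lower in U than in C by 1.03 ± 0.18 (SE, 2.04-fold lower, adjusted p = 0.000151), and its difference with SCF was 0.51 ± 0.18 (SE, adjusted p = 0.0507), or 0.65 without U replicate 1 (adjusted p = 0.0303). Hnrnpll, a regulator of Ptprc exons in lymphocytes, read 9.38, 9.45 and 9.32 on the SCF arrays, against 8.96, 9.16 and 8.87 on the U arrays. In the C group it read 9.88, 9.92 and 10.08, against 9.19, 9.16 and 9.83 in the A group. Here too A replicate 3 lay nearest the C arrays. The gene was higher in C than in A by 0.57 ± 0.16 (SE, 1.48-fold higher, adjusted p = 0.00942), a call lost without A replicate 2 (adjusted p = 0.0526), and was lower in U than in C by 0.96 ± 0.16 (SE, 1.95-fold lower, adjusted p = 0.000116).

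Among the hnRNP genes, by the probe that stands for each, Hnrnpdl, Hnrnph1 and Hnrnpk had the largest decreases in U against C. Hnrnpdl read 8.48, 8.59 and 8.58 on the SCF arrays, against 8.44, 8.47 and 8.51 on the U arrays. Readings on the C arrays were 9.97, 10.54 and 10.28, against 9.90, 10.04 and 9.72 on the A arrays. The SCF and U arrays lay together and well below the C and A arrays. It fell by 1.79 ± 0.15 (SE, 3.46-fold lower, adjusted p = 4.62e-08) in U against C, and SCF and U differed by 0.07 ± 0.15 (SE, adjusted p = 0.782). Hnrnpdl was higher in C than in A by 0.38 ± 0.15 (SE, 1.30-fold higher, adjusted p = 0.0434), a call lost without C replicate 2 or 3 or A replicate 1 or 3 (adjusted p = 0.083 to 0.243). Hnrnph1, which binds G tracts, read 10.01, 9.57 and 9.80 on the SCF arrays, against 8.59, 9.55 and 9.26 on the U arrays. C replicates read 10.64, 10.64 and 10.98, against 10.20, 10.41 and 10.30 for the A replicates. U replicate 1 was the lowest array, and the C and A arrays lay above all SCF arrays. Hnrnph1 rose with SCF by 0.66 ± 0.20 (SE, 1.58-fold higher, adjusted p = 0.0221), a call lost without U replicate 1 (difference 0.39, adjusted p = 0.12), SCF replicate 1 (0.094) or SCF replicate 3 (0.0599). It fell by 1.62 ± 0.20 (SE, 3.08-fold lower, adjusted p = 3.93e-06) in U against C. Hnrnpk, a C-tract binding protein with KH domains, read 8.66, 8.22 and 8.96 on the SCF arrays, against 6.48, 8.57 and 7.80 on the U arrays. Its C arrays gave 9.17, 8.87 and 10.26, against 9.89, 10.42 and 9.81 on the A arrays. Here U replicate 1 lay more than 1 unit below every other array and C replicate 3 above the other C arrays. The gene was lower in U than in C by 1.82 ± 0.42 (SE, 3.52-fold lower, adjusted p = 0.00154), and its difference with SCF was 1.00 ± 0.42 (SE, adjusted p = 0.0965), or 1.48 without U replicate 2 (adjusted p = 0.0163).

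Hnrnpa2b1 and Hnrnpf spread in the same way within groups. Hnrnpa2b1, a close relative of Hnrnpa1, read 9.71, 9.08 and 9.28 on the SCF arrays, against 7.16, 9.39 and 8.58 on the U arrays. C arrays gave 9.39, 8.74 and 10.94, against 10.47, 11.04 and 10.77 on the A arrays. U replicate 1 was low and C replicate 3 high, and the groups overlapped in each comparison. Its decrease in U against C was 1.32 ± 0.49 (SE, 2.49-fold lower, adjusted p = 0.0328) and was lost without U replicate 1 (difference -0.71, adjusted p = 0.208), C replicate 3 (-0.69, 0.208) or U replicate 3 (0.0552). In C against A the difference was -1.07 ± 0.49 (SE, adjusted p = 0.0888), and without C replicate 3 it was -1.69 (adjusted p = 0.00571). SCF differed from U by 0.98 ± 0.49 (SE, adjusted p = 0.17), or 1.49 without U replicate 2 (adjusted p = 0.0448). Hnrnpf, which binds G tracts as Hnrnph1 does, read 8.54, 8.17 and 8.35 on the SCF arrays, against 6.69, 8.38 and 7.38 on the U arrays. Values were 8.86, 8.30 and 9.89 on the C arrays, against 8.97, 9.34 and 8.90 on the A arrays. It was lower in U than in C by 1.53 ± 0.37 (SE, 2.89-fold lower, adjusted p = 0.00226), and its difference with SCF was 0.87 ± 0.37 (SE, adjusted p = 0.102), or 1.32 without U replicate 2 (adjusted p = 0.0135). Over the 76 probes, U replicate 1 was the lowest of its group for 43.4% (31.3% of all tested probes), C replicate 3 the highest of its group for 52.6% (34.2%) and A replicate 3 the highest of its group for 52.6% (38%). The remaining hnRNP genes were Hnrnpul1, lower in U than in C by 1.16 ± 0.21 (SE, 2.24-fold lower, adjusted p = 0.000178), and Hnrnpm and Hnrnph3, with no call. In C against A, Hnrnpm gave 0.33 without A replicate 3 (adjusted p = 0.0374) and Hnrnph3 gave -0.65 without C replicate 3 (adjusted p = 0.0327).

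All 3 subunits of SF3A, the complex that completes the U2 snRNP, were lower in U than in C, and none of them was called in the values normalised in separate sets. Sf3a1 read 10.06, 10.23 and 10.14 on the SCF arrays, against 9.94, 9.68 and 9.55 on the U arrays. The level was 10.40, 10.41 and 10.38 on the C arrays, against 9.41, 9.29 and 9.57 on the A arrays. The C arrays were the highest and the A arrays mostly the lowest. With SCF it rose by 0.42 ± 0.13 (SE, 1.34-fold higher, adjusted p = 0.0245), a call lost without SCF replicate 2 or 3 or U replicate 2 or 3 (adjusted p = 0.0531 to 0.0914). Sf3a1 was higher in C than in A by 0.98 ± 0.13 (SE, 1.97-fold higher, adjusted p = 1.09e-05), and was lower in U than in C by 0.68 ± 0.13 (SE, 1.60-fold lower, adjusted p = 0.000295). Sf3a3 read 11.01, 11.14 and 11.18 on the SCF arrays, against 10.42, 10.48 and 10.53 on the U arrays. In the C group it read 11.35, 11.27 and 11.26, against 10.57, 10.41 and 10.43 in the A group. Its groups did not overlap in any of the comparisons. The increase with SCF was 0.64 ± 0.10 (SE, 1.56-fold higher, adjusted p = 0.000391). Sf3a3 was higher in C than in A by 0.82 ± 0.10 (SE, 1.77-fold higher, adjusted p = 8.52e-06) and lower in U than in C by 0.82 ± 0.10 (SE, 1.76-fold lower, adjusted p = 6.84e-06). Sf3a2 read 5.49, 5.30 and 5.99 on the SCF arrays, against 5.46, 4.73 and 5.59 on the U arrays. Readings on the C arrays were 6.41, 6.39 and 6.39, against 5.18, 5.46 and 6.87 on the A arrays. A replicate 3 stood above the other A arrays. It was lower in U than in C by 1.14 ± 0.34 (SE, 2.20-fold lower, adjusted p = 0.00979), which was lost without U replicate 2 (difference -0.87, adjusted p = 0.0578), and its difference between C and A was 0.56 ± 0.34 (SE, adjusted p = 0.196), or 1.08 without A replicate 3 (adjusted p = 0.00251).

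In SF3B, which clasps the branch point, the subunits differed in size of change. Sf3b3, a scaffold of the complex, read 10.79, 10.86 and 11.26 on the SCF arrays, against 10.64, 10.29 and 10.17 on the U arrays. C replicates read 11.31, 11.43 and 11.28, against 10.20, 9.92 and 10.38 for the A replicates. The C arrays lay above all A and U arrays. It was higher with SCF by 0.60 ± 0.16 (SE, 1.51-fold higher, adjusted p = 0.011), which was lost without SCF replicate 3 (adjusted p = 0.0618). Sf3b3 was higher in C than in A by 1.18 ± 0.16 (SE, 2.26-fold higher, adjusted p = 1.45e-05) and lower in U than in C by 0.97 ± 0.16 (SE, 1.96-fold lower, adjusted p = 7.49e-05). Sf3b4, which contacts pre-mRNA near the branch point, read 10.81, 10.61 and 10.40 on the SCF arrays, against 10.54, 10.45 and 10.40 on the U arrays. Its C arrays gave 11.11, 10.89 and 10.99, against 9.66, 9.78 and 10.09 on the A arrays. It was higher in C than in A by 1.16 ± 0.14 (SE, 2.23-fold higher, adjusted p = 4.06e-06) and lower in U than in C by 0.54 ± 0.14 (SE, 1.45-fold lower, adjusted p = 0.0035), and SCF differed from U by 0.14 ± 0.14 (SE, adjusted p = 0.516). Sf3b2 read 11.29, 11.19 and 11.40 on the SCF arrays, against 11.05, 11.12 and 10.86 on the U arrays. C arrays gave 11.58, 11.62 and 11.62, against 11.45, 11.47 and 11.35 on the A arrays. It was lower in U than in C by 0.60 ± 0.11 (SE, 1.51-fold lower, adjusted p = 0.000191), while its differences were 0.28 ± 0.11 (SE, adjusted p = 0.0657) for SCF against U and 0.18 ± 0.11 (SE, adjusted p = 0.183) for C against A.

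Sf3b5 read 11.70, 11.85 and 11.74 on the SCF arrays, against 11.65, 11.40 and 11.66 on the U arrays. Values were 11.84, 11.74 and 11.58 on the C arrays, against 11.20, 11.29 and 10.99 on the A arrays. It was higher in C than in A by 0.56 ± 0.12 (SE, 1.47-fold higher, adjusted p = 0.00108), a second probe giving 0.64 ± 0.15 (SE, 1.55-fold higher, adjusted p = 0.00196), and the difference with SCF was 0.19 ± 0.12 (SE, adjusted p = 0.277). Sf3b6, the subunit that touches the branch point adenosine, read 6.33, 6.10 and 6.49 on the SCF arrays, against 6.22, 5.99 and 6.44 on the U arrays. The level was 6.14, 6.21 and 6.10 on the C arrays, against 6.04, 5.51 and 5.51 on the A arrays. No comparison passed, though without A replicate 1 it was higher in C than in A by 0.64 (adjusted p = 0.0131). Sf3b1, the large subunit with HEAT repeats, was read by 1 dim probe, above background on all SCF and C arrays but on 1 U and 1 A array, at 5.08, 5.40 and 4.73 on the SCF arrays, against 4.63, 4.72 and 4.49 on the U arrays. In the C group it read 4.77, 4.91 and 5.08, against 4.62, 4.54 and 4.77 in the A group. Its increase with SCF was 0.45 ± 0.16 (SE, 1.37-fold higher, adjusted p = 0.0458) and was lost when any array but SCF replicate 3 was left out (adjusted p = 0.0618 to 0.212).

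Both subunits of U2AF were higher with SCF. U2af1, the small subunit, read 9.42, 9.16 and 9.80 on the SCF arrays, against 8.66, 8.71 and 8.89 on the U arrays. Readings on the C arrays were 9.78, 9.30 and 9.19, against 8.86, 9.00 and 8.77 on the A arrays. The SCF arrays lay above the U arrays and the C arrays above the A arrays. With SCF it rose by 0.71 ± 0.18 (SE, 1.64-fold higher, adjusted p = 0.00801). U2af1 was higher in C than in A by 0.55 ± 0.18 (SE, 1.46-fold higher, adjusted p = 0.0189), a call lost without C replicate 1 (adjusted p = 0.123) or A replicate 3 (0.0503), and was lower in U than in C by 0.67 ± 0.18 (SE, 1.59-fold lower, adjusted p = 0.00443). U2af2, the large subunit, read 8.32, 8.19 and 8.77 on the SCF arrays, against 7.25, 6.74 and 8.30 on the U arrays. C replicates read 8.31, 8.12 and 7.83, against 7.36, 7.08 and 7.83 for the A replicates. U replicate 3 reached the level of the SCF arrays. The increase with SCF was 1.00 ± 0.31 (SE, 2.00-fold higher, adjusted p = 0.0255) and was lost without SCF replicate 3 (adjusted p = 0.115), U replicate 1 (0.0892) or U replicate 2 (0.138). Its differences were 0.66 ± 0.31 (SE, adjusted p = 0.0876) for C against A, or 0.87 without A replicate 3 (adjusted p = 0.0423), and -0.66 ± 0.31 (SE, adjusted p = 0.0809) for U against C, and without U replicate 3 the difference between U and C was -1.09 (adjusted p = 0.00224).

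Of the tested genes 20 had several tested probes, and the probes of 1 gene did not always move together. Each further probe was set against the probe that stands for its gene within every array, over 6240 such pairs of the series, of which 37 belong to the splicing factor genes. With SCF no member pair differed, where 3.16% of all pairs did. In C against A 6 of 37 differed (16.2%, against 15.3% of all pairs) and in U against C 17 of 37 (45.9%, against 37.2% of all pairs). Limited to pairs with both probes above background on all 12 arrays, the counts were 1 and 9 of 26 (5.76% and 30.7% of all such pairs). Pairs that differed were thus common over the whole series and not particular to these genes. The position of a probe within the transcript is not given in the sources used here.

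In Hnrnpa2b1 the probes moved in opposite directions in U against C. Probe ILMN_2771074 read 7.55, 7.82 and 8.14 on the SCF arrays, against 6.80, 6.51 and 7.37 on the U arrays. Its C arrays gave 5.21, 5.42 and 5.57, against 4.85, 4.84 and 5.23 on the A arrays. It was high on the SCF and U arrays and low on the C and A arrays. It was higher in U than in C by 1.49 ± 0.22 (SE, 2.81-fold higher, adjusted p = 3.58e-05) where the standing probe, ILMN_2615855, was lower, and the pair differed by 2.81 ± 0.55 (SE, adjusted p = 0.000967). It rose with SCF by 0.94 ± 0.22 (SE, 1.92-fold higher, adjusted p = 0.00604). Probe ILMN_1238842 read 6.72, 6.99 and 7.18 on the SCF arrays, against 5.99, 6.18 and 6.65 on the U arrays, and was above background on no C or A array. It was at least 3.09-fold higher in U than in C (adjusted p = 3.01e-07). Its increase with SCF of 0.69 ± 0.18 (SE, 1.61-fold higher, adjusted p = 0.00988) was lost without U replicate 1 (adjusted p = 0.0569). Probe ILMN_1256921 was likewise above background on the SCF and U arrays alone and at least 1.32-fold higher in U than in C. The platform table lists ILMN_2771074 and ILMN_1238842 on 1 transcript record, and ILMN_2615855 and ILMN_1256921 on another, so the probes that moved together do not divide by record.

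In Hnrnpdl 2 probes fell and 2 rose in U against C. Probe ILMN_2501670 was lower by 1.40 ± 0.20 (SE, 2.64-fold lower, adjusted p = 1.85e-05), as the standing probe was. Probe ILMN_2903440 read 8.54, 8.67 and 8.59 on the SCF arrays, against 7.65, 7.50 and 8.14 on the U arrays. C arrays gave 7.08, 7.27 and 7.53, against 7.18, 6.72 and 7.08 on the A arrays. The SCF arrays were the highest and the C and A arrays the lowest, the reverse of the standing probe. The probe rose with SCF by 0.83 ± 0.19 (SE, 1.78-fold higher, adjusted p = 0.00405). It was higher in U than in C by 0.47 ± 0.19 (SE, 1.39-fold higher, adjusted p = 0.0431), a call lost without U replicate 1 or 3 or C replicate 1 or 2 (adjusted p = 0.0537 to 0.223). The pair differed by 2.26 ± 0.21 (SE, adjusted p = 9.9e-07). Probe ILMN_2774965 was above background on the SCF and U arrays alone, at least 1.32-fold higher in U than in C. All 4 probes are listed on versions of 1 transcript record.

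Hnrnpk and Hnrnpll held the same split. In Hnrnpk probe ILMN_2708776 read 5.73, 6.02 and 6.13 on the SCF arrays, against 5.77, 5.45 and 5.49 on the U arrays, and was above background on no C or A array, at least 1.89-fold higher in U than in C (adjusted p = 1.05e-06), where the standing probe was lower. In Hnrnpll probe ILMN_2768850 read 7.34, 7.65 and 7.42 on the SCF arrays, against 7.07, 7.33 and 7.45 on the U arrays. Values were 6.40, 6.28 and 6.47 on the C arrays, against 6.25, 6.21 and 6.58 on the A arrays. The SCF and U arrays lay above all C and A arrays. It was higher in U than in C by 0.90 ± 0.17 (SE, 1.87-fold higher, adjusted p = 0.000281), the pair differing by 1.86 ± 0.16 (SE, adjusted p = 6.57e-07). In C against A the pair differed by -0.53 ± 0.16 (SE, adjusted p = 0.0428). In all, 5 of the 76 member probes (6.58%) were above background on every SCF and U array and on no C or A array, against 455 of all 20614 tested probes (2.21%), and the reverse held for none of the 76 (201 of all, 0.975%).

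**Figure D4:**
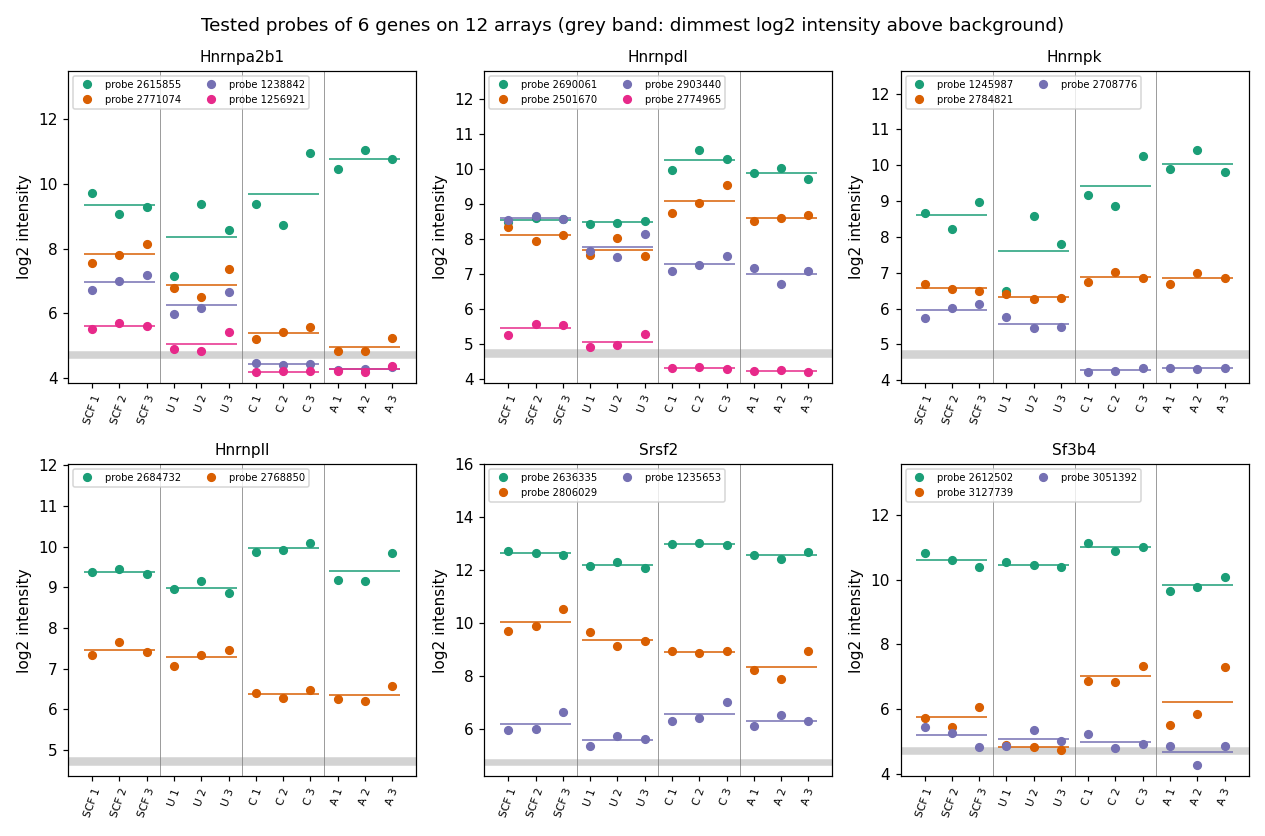
Log2 intensity of every tested probe of Hnrnpa2b1, Hnrnpdl, Hnrnpk, Hnrnpll, Srsf2 and Sf3b4 on the 12 arrays (points, 1 colour per probe), with the mean of each group as a line and the range of the dimmest signal above background (4.63 to 4.82) as a grey band. In Hnrnpa2b1, Hnrnpdl, Hnrnpk and Hnrnpll the brightest probe is lower on the U arrays than on the C arrays while at least 1 other probe is higher.

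Among the SR genes, probe ILMN_2806029 of Srsf2 read 9.70, 9.89 and 10.55 on the SCF arrays, against 9.66, 9.15 and 9.31 on the U arrays. The level was 8.94, 8.87 and 8.94 on the C arrays, against 8.24, 7.87 and 8.93 on the A arrays. Its U arrays lay above its C arrays, while those of the standing probe lay below. The pair differed by 1.25 ± 0.24 (SE, adjusted p = 0.000794) in U against C, where this probe alone gave 0.45 ± 0.24 (SE, adjusted p = 0.128). Without A replicate 3 this probe was higher in C than in A by 0.86 (adjusted p = 0.00448). Probe ILMN_3142235 of Srsf1 moved in the same direction as the standing probe and further, falling by 1.37 ± 0.14 (SE, 2.59-fold lower, adjusted p = 5.11e-07), and the pair differed by -0.44 ± 0.11 (SE, adjusted p = 0.00692). In Srsf10 probe ILMN_3090825 fell by 0.64 ± 0.16 (SE, 1.56-fold lower, adjusted p = 0.00308), less than the standing probe, with a pair difference of 0.99 ± 0.30 (SE, adjusted p = 0.0167). For Srsf11 the standing probe was not called, whereas ILMN_1226169 rose with SCF by 0.46 ± 0.16 (SE, 1.37-fold higher, adjusted p = 0.0484) and was lower in U than in C by 0.81 ± 0.16 (SE, 1.76-fold lower, adjusted p = 0.000435).

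Further pairs were as follows. In Hnrnpab probe ILMN_1259056 was higher in C than in A by 1.38 ± 0.20 (SE, 2.59-fold higher, adjusted p = 3.41e-05), further than the standing probe, with a pair difference of 1.02 ± 0.17 (SE, adjusted p = 0.000668), and in U against C the pair differed by -0.63 ± 0.17 (SE, adjusted p = 0.00809). In Hnrnpa1 probe ILMN_3096701 gave 0.37 ± 0.27 (SE, adjusted p = 0.282) in C against A, a pair difference of -0.99 ± 0.29 (SE, adjusted p = 0.0332), and the pair differed by -0.87 ± 0.29 (SE, adjusted p = 0.0303) in U against C. It rose with SCF by 1.07 ± 0.27 (SE, 2.10-fold higher, adjusted p = 0.00838), lost without U replicate 1 (adjusted p = 0.0511). Probe ILMN_2645645 of Hnrnpa0 gave 0.08 ± 0.20 (SE, adjusted p = 0.799) in C against A, a pair difference of -0.72 ± 0.20 (SE, adjusted p = 0.0239). In Sf3b4 probe ILMN_3127739 read 5.72, 5.45 and 6.07 on the SCF arrays, against 4.91, 4.82 and 4.75 on the U arrays. In the C group it read 6.88, 6.85 and 7.35, against 5.50, 5.84 and 7.31 in the A group. It fell by 2.20 ± 0.34 (SE, 4.59-fold lower, adjusted p = 4.11e-05) in U against C, further than the standing probe by -1.66 ± 0.31 (SE, adjusted p = 0.000594), and A replicate 3 lay at the level of the C arrays. Without that array the probe was higher in C than in A by 1.36 (adjusted p = 0.000111). The pairs of Hnrnph1 (ILMN_2688923), Hnrnpk (ILMN_2784821) and Hnrnpul1 (ILMN_1239335) also differed in U against C, and that of a further Sf3b4 probe (ILMN_3051392) in both comparisons. ILMN_1239335 and ILMN_3051392 lay close to background and were not above it on every array. ILMN_1239335 averaged 4.77 on the C arrays and was above background on no A array. ILMN_3051392 averaged 4.99 on the C arrays and 4.67 on the A arrays. A probe so near background cannot show the full fall of a bright one. The differences of these pairs therefore need not be differences between transcripts. The pair of Hnrnpa1 with ILMN_2712751 was called in C against A, but that probe was above background on the SCF arrays alone, so its difference is not given. The 17 pairs called in U against C include 4 whose further probe was above background on no C array, those with ILMN_1238842 and ILMN_1256921 of Hnrnpa2b1, ILMN_2774965 of Hnrnpdl and ILMN_2708776 of Hnrnpk, for which only the bounds above are given.

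Other parts of the splicing machinery were described by lists of genes in the same way. Over all genes, with 1 probe per gene, 14.1% were higher and 13.7% lower with SCF. In C against A 29.6% were higher and 21.3% lower, and in U against C 28.5% were higher and 28.5% lower. Of the Sm and LSm ring proteins, which form the core of the snRNPs, 11 of 15 tested genes rose with SCF, 11 were higher in C than in A and 13 were lower in U than in C, with 1 higher, and the medians were 0.64, 0.75 and -0.73. For U1 and U2 snRNP proteins other than SF3 and U2AF the counts of 17 were 8 higher with SCF, 11 higher in C than in A and 12 lower in U than in C, none going the other way (medians 0.37, 0.59 and -0.61). Of the tri-snRNP proteins 7 of 15 rose with SCF, 8 were higher in C than in A, and 7 were lower and 2 higher in U than in C (medians 0.35, 0.66 and -0.46). The Prp19 complex and catalytic factors had 9 of 24 higher with SCF, 8 higher and 2 lower in C than in A, and 4 higher and 9 lower in U than in C (medians 0.28, 0.20 and -0.10).

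SR-related proteins and SR kinases had 4 of 20 higher with SCF, 8 higher and 5 lower in C than in A, and 14 lower in U than in C (medians 0.25, 0.11 and -0.61). Other splicing regulators had 7 of 34 higher and 1 lower with SCF, 12 higher and 1 lower in C than in A, and 5 higher and 17 lower in U than in C (medians 0.27, 0.26 and -0.43). Exon junction and nonsense-mediated decay genes had 2 of 12 higher with SCF, 3 higher in C than in A, and 1 higher and 3 lower in U than in C (medians 0.23, 0.28 and -0.27). For the minor spliceosome 1 of 5 was higher with SCF, 1 was lower in C than in A and none was called in U against C. In the SCF comparison 1 gene of all these lists was lower, one of the other regulators. Some of these counts lay near the shares of all genes. They include those of the exon junction and decay genes with SCF and in C against A, and the higher count of the Prp19 list in C against A. The lists were chosen with earlier results of these data known, and their counts are a description.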

How the data were processed

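RNA of bone marrow cells was measured on 12 Illumina mouse arrays in 4 labelled groups of 3. The authors deposited non-normalised probe intensities, detection p-values, and processed intensities that, per the file headers and methods, were normalised in separate sets, C with A and U with SCF; the processed values were used only as an alternative. The detection p-value deposited for each probe compares it with negative control beads of the same array. The study's methods also speak of sequenced RNA, which these intensities are not.

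Intensities were background corrected and quantile normalised over the 12 arrays with neqc (limma 3.58.1, R 4.3.3, offset 16), and probes with a detection p-value under 0.05 on at least 3 arrays were tested. Group means were fitted with lmFit and eBayes with a trend (8 residual degrees of freedom), and adjusted p-values are Benjamini-Hochberg values over 20614 probes, called under 0.05. A difference between probes of 1 gene was tested as an interaction within arrays, adjusted over 6240 pairs. Where a probe was above background on no array of a group, a fold is given as a lower bound, against the dimmest signal above background on each array or the probe's own where higher.

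Groups came from the labels and replicate numbers from the descriptions. Numbers do not state a shared mouse. Platform symbols were updated through gene identifiers; 35784 of 45281 probes carry a symbol, and 10 member probes carry an older one. The brightest probe stands for a gene. Values are given in full for the 3 largest increases and decreases among the SR and among the hnRNP genes in each comparison, every SF3A, SF3B and U2AF gene, and genes whose probes differed. The members, lists and markers were chosen with earlier results of these data known. Alternatives covered background, scaling, filter, offset, array weights, a fold threshold, the replicate block, the control and each array left out; scaling to the median of all probes was chosen after seeing the data.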

Additional observations from a re-analysis of the deposited data

How the results depend on the processing

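With SCF against U, no setting that kept U as the control gave a lower probe. The 29 higher probes became 17 with 1 probe per gene (38 genes), 11 with a fold threshold of 1.2, 14 (and 22 lower) with the C arrays as control and 7 with U and C together, and 21 to 28 when 1 array was left out. In C against A the 28 higher and 0 lower became 15 and 2 with cyclic loess, 19 and 12 with median scaling, 56 and 0 with median scaling over all probes (chosen after seeing the data), and 12 and 0 with the fold threshold, 1 was lower without a filter and 1 with array weights, and leaving out 1 array gave 21 to 30 higher and 0 to 2 lower, the 2 being without C replicate 3. In U against C the 10 higher and 42 lower became 27 and 14 in the authors' processed values, 23 and 18 with the sets normalised apart, 2 and 24 with 1 probe per gene, and 3 higher among probes above background on all 6 arrays, and 8 to 10 and 41 to 42 with 1 array left out. Probe pairs that differed became 1 in C against A and 9 in U against C with both probes above background on all arrays, and 1 in SCF against U with median scaling. The replicate block gave 30 higher in each of SCF against U and C against A, and 10 higher and 43 lower in U against C; same-numbered arrays correlated at -0.259 to 0.206, so the numbers were not taken as pairs. The causes of these shifts were not tested.

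Values that changed sign were, in C against A with median scaling, Hnrnpa2b1 (ILMN_1238842) -0.67, Hnrnpul1 (ILMN_1239335) -0.46, Hnrnpu -0.70, Hnrnpd -0.08, Hnrnph2 -0.76, Hnrnpa1 (ILMN_2712751) -0.75 and Hnrnpdl (ILMN_2774965) -0.73, and over all probes Clasrp 0.49 and Srsf5 0.44. The listed probes of Hnrnpa2b1, Hnrnpu, Hnrnph2, Hnrnpa1 and Hnrnpdl were above background on no C or A array. Their values are differences of background signal and not of measured transcript. The listed Hnrnpul1 probe was above background on no A array, so its value is not a measured difference either. SCF with the C arrays as control gave Hnrnph1 -0.96 and -1.08 by its probes, Hnrnpa0 -0.07, Hnrnpab (ILMN_1259056) -0.16, Hnrnpl -0.52, Hnrnpll -0.58, Hnrnpul1 -0.91, Hnrnpdl -1.72, Srsf1 -0.16 and -0.55, Srsf2 -0.33, Srsf4 -0.40, Srsf5 -1.0, Srsf6 -0.52, Srsf10 -0.91 and -0.42, Sf3a1 -0.26, Sf3a3 -0.18, Sf3b2 -0.31, Sf3b3 -0.37 and Sf3b4 -0.39 and -1.28. With U and C as control Hnrnph1 gave -0.15 and -0.06. In U against C the authors' values and the sets normalised apart gave Hnrnpc 0.12 and 0.12, Sf3b2 0.02 and 0.01, Hnrnpa1 0.46 and 0.48, Hnrnpa0 0.04 and 0.03, Sf3b4 0.08 and 0.07, Scaf11 0.45 and 0.52, Hnrnpk (ILMN_2784821) 0.11 and 0.07 and Sf3b5 0.44 and 0.45, and the authors' values alone Hnrnpa0 (ILMN_2645645) 0.02, Srsf3 0.33 and Srsf10 (ILMN_3090825) 0.05. Probes near 4.63 to 4.82, the dimmest signal above background, give only bounds, and no bound where neither group was above background.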

Other observations

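Some probes of the same genes carry other symbols on the platform and so were not members. Hnrnpr, with no tested member probe, had such a probe (ILMN_1242103) that was higher in C than in A by 0.60 (limma, adjusted p = 0.00567) and lower in U than in C, by -0.84 (0.000304), with -0.03 for SCF against U. A probe of Srsf10 under its older symbol Fusip1 (ILMN_2698282) rose with SCF by 0.72 (adjusted p = 0.019), where the 3 member probes of the gene did not pass, and gave -1.45 for U against C (2.45e-05). A further probe of Hnrnpl (ILMN_2580691) was higher in C than in A by 0.36 (adjusted p = 0.0409) and gave -0.71 for U against C (0.000323). The U2AF relative U2af1l4, which takes part in splicing of circadian and T cell transcripts and lay outside the rule, gave 0.16 for SCF against U, 0.30 for C against A and -0.40 for U against C, none called.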
